A study of Gallus gallus with 25 samples.

Results

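The miR-143 and miR-145 microRNAs were followed in chicken embryonic gonads through the 4 array probes that carry their names, dre-miR-143, hsa-miR-143, dre-miR-145 and hsa-miR-145. They were taken by name from the scanner tables, as perfect-match probes for mature microRNAs, and make up 4 of the 657 mature probes on the array. The rule uses names and no measured value, although earlier results of these data were known when it was set. The prefixes dre and hsa mark probes designed for zebrafish and human microRNAs, so each probe reads whatever chicken RNA binds it. The gonads came from chickens with no mutation or treatment named in the labels. They were collected at embryonic day 5.5 (E5.5), 6.5 (E6.5) and 9.5 (E9.5), which span the time when the bipotential gonad takes the form of a testis or an ovary, and pooled by sex before small RNA was extracted. E5.5 and E6.5 embryos had been sexed by PCR, and E9.5 embryos by the shape of the gonads. The array chip numbered 4011845 was used for 3 arrays of each sex at E5.5, for 3 arrays of males and 1 of females at E6.5, and for 4 arrays of each sex at E9.5. The E9.5 arrays of each sex are numbered 1-1, 1-2, 2 and 3, and the labels do not say whether 1-1 and 1-2 share an RNA pool. They were counted as separate arrays, so the spread may be understated, and their average was run as an alternative. A further 7 arrays, of E5.5 and E6.5 only, were on chip 50636 and are described separately.

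MicroRNAs are short RNAs that lower the stability and translation of messenger RNAs whose 3′ ends pair with the microRNA seed, its bases 2 to 8. In vertebrates miR-143 and miR-145 are cut from neighbouring hairpins of one primary transcript and are best known from smooth muscle cells, pericytes and fibroblasts. In mouse, their transcription in vascular smooth muscle depends on serum response factor and its partner myocardin, and both favour the contractile state of those cells. In the GRCg7b annotation of the chicken genome, the genes MIR143 and MIR145 lie on the same chromosome with 0 other genes starting between them. The long non-coding RNA gene LOC112533410 overlaps the stretch between their starts.

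The probe sequences are shown because they set what the 4 values can tell apart. In the lines that follow, the bases that pair with the seed are in capitals, with each probe read 5′ to 3′ as the scanner tables give it.
dre-miR-143: gagctacagtgctTCATCTCa
hsa-miR-143: tgagctacagtgctTCATCTCa
dre-miR-145: gggattcctgggaaAACTGGAc
hsa-miR-145: aagggattcctgggaaAACTGGAc
The human-named probe of each pair holds the whole zebrafish-named probe plus extra bases at its 5′ end, 1 base (t) for miR-143 and 2 bases (aa) for miR-145. The 2 probes of a pair therefore read the same RNA and are not independent measurements. The RNA complementary to each probe is given next, with the seed in capitals.
RNA paired by dre-miR-143: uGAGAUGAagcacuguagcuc
RNA paired by hsa-miR-143: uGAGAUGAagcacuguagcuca
RNA paired by dre-miR-145: gUCCAGUUuucccaggaauccc
RNA paired by hsa-miR-145: gUCCAGUUuucccaggaaucccuu
The seeds GAGAUGA and UCCAGUU differ, and each was shared by 2 of the 657 mature probes, which were the members of its own pair. The dye binds guanine, of which the paired RNAs hold 6 for miR-143 and 4 for miR-145, so levels of the different probes were not set against each other.

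Each value below is a foreground intensity corrected for background, put on the log2 scale and quantile-normalised among the 18 arrays of chip 4011845. A probe was called detected on an array when its intensity lay above the 95th percentile of that array's 7 negative controls. Between 51 and 177 of the 657 mature probes were detected per array, and median foreground intensity ran from 74.5 to 207. Of the mature probes, 163 were detected on at least 3 of the 18 arrays and were tested, all 4 miR-143 and miR-145 probes among them. Both miR-143 probes met this filter only through E9.5, with detection on 1 array at E5.5 and 1 at E6.5. Their calls as higher at E9.5 are therefore not independent of the filter. The number of arrays limits the precision, and p-values reflect only how far these arrays differ among themselves, which can be technical in part. In whole gonads, fewer cells of a type and less RNA per cell cannot be told apart. On the first principal component, which held 45.7% of the variance, Male E5.5 array 2, Female E6.5 array 2 and Male E6.5 array 2 lay farthest to one side, so calls are also given without them where they change.

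Both miR-143 probes were near the negative controls in most early gonads and above them in nearly all E9.5 gonads. The dre-miR-143 probe was detected on 1 of 6 arrays at E5.5, 1 of 4 at E6.5 and 8 of 8 at E9.5. The hsa-miR-143 probe was detected on 1 of 6, 1 of 4 and 7 of 8 arrays at the same stages. Array numbers differ between groups because each carries the number in its label.

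At E5.5, dre-miR-143 measured 6.63, 7.19 and 6.60 log2 units in males (arrays 2, 3 and 6) and 6.82, 7.07 and 6.79 in females (arrays 3, 5 and 4). At E6.5 it measured 6.43, 6.97 and 7.37 in males (arrays 2, 3 and 6) and 6.68 in the female array. At E9.5 it measured 8.10, 7.50, 8.10 and 7.82 in males and 8.00, 8.36, 7.75 and 7.82 in females (arrays 1-1, 1-2, 2 and 3 of each sex). All 8 E9.5 arrays were above all 10 earlier arrays, and the sexes overlapped at E5.5 and at E9.5. The share of all tested probes that split E9.5 from both earlier stages was not computed.

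The hsa-miR-143 probe, which has 1 spot per array, measured 6.39, 6.53 and 6.34 in E5.5 males and 6.93, 6.76 and 7.30 in E5.5 females. At E6.5 the values were 6.48, 6.53 and 7.61 in males and 6.71 in the female array. At E9.5 they were 7.79, 7.46, 7.46 and 8.03 in males and 8.60, 7.48, 8.14 and 7.35 in females. The E9.5 and E5.5 arrays did not overlap, but Male E6.5 array 6 reached the E9.5 range with this probe. That array was also the highest of the E6.5 arrays for dre-miR-143.

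The miR-145 probes were already above the negative controls in most early gonads. The dre-miR-145 probe was detected on 5 of 6 arrays at E5.5, 3 of 4 at E6.5 and 8 of 8 at E9.5, and the hsa-miR-145 probe on 5 of 6, 4 of 4 and 8 of 8. Neither was detected on Male E5.5 array 2, where both had their lowest value of the 18 arrays.

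At E5.5, hsa-miR-145 measured 8.06, 9.51 and 9.15 in males and 8.33, 9.27 and 8.98 in females. At E6.5 it measured 8.73, 9.51 and 8.92 in males and 8.57 in the female array. At E9.5 it measured 10.39, 10.65, 10.16 and 9.95 in males and 9.62, 10.53, 9.56 and 9.86 in females. The 8 E9.5 arrays all lay above the 10 earlier ones, by a narrow margin between Female E9.5 array 2 and the 2 early male arrays at 9.51. For this split too, no share over all tested probes was computed.

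At E5.5, dre-miR-145 measured 7.29, 9.02 and 8.89 in males and 8.14, 8.99 and 8.47 in females. At E6.5 it measured 8.03, 8.99 and 8.50 in males and 7.75 in the female array. At E9.5 it measured 9.74, 10.16, 9.38 and 9.50 in males and 9.02, 10.06, 8.65 and 9.46 in females. The male arrays of E9.5 lay above all earlier male arrays, a split whose share over all tested probes was not computed. Female E9.5 array 2 fell among the E5.5 values.

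**Figure D1:**
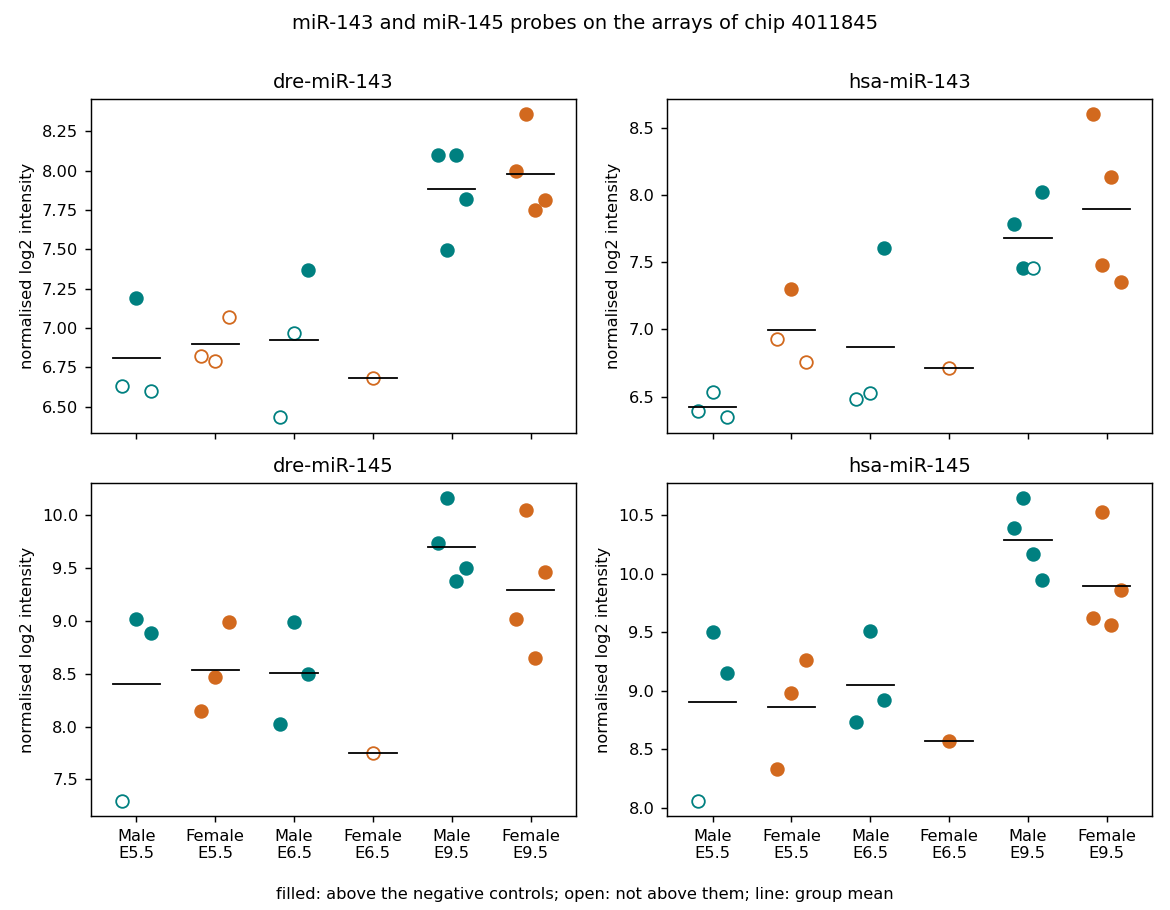
Normalised log2 intensity (vertical axis) of the 4 probes on the 18 arrays of chip 4011845, by sex and embryonic day. Each point is 1 array, filled where the probe was above the negative controls and open where it was not, and the line is the group mean; the 8 E9.5 arrays stand above the 6 E5.5 arrays for dre-miR-143, hsa-miR-143 and hsa-miR-145, and overlap them for dre-miR-145.

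The comparison of E9.5 with E5.5 asked which microRNAs change while the gonads differentiate. Averaged over the sexes, all 4 probes were higher at E9.5. The measured log2 difference was 1.08 ± 0.18 for dre-miR-143 (SE, limma adjusted p = 0.000392, 8 arrays against 6) and 1.08 ± 0.23 for hsa-miR-143 (limma adjusted p = 0.00226). Each miR-143 probe was above the negative controls on only 1 of the 6 E5.5 arrays, so no fold is given for them over the sexes and their differences are not set against those of miR-145. Both values fall on the same RNA and count as one observation of miR-143.

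For miR-145, the difference over the sexes was 1.21 ± 0.25 with hsa-miR-145 (2.31-fold, limma adjusted p = 0.00183) and 1.03 ± 0.29 with dre-miR-145 (2.04-fold, limma adjusted p = 0.0208). All 4 probes therefore passed the threshold of 0.05, against 23.9% of the 163 tested probes, and 18.4% that passed it as higher at E9.5. These are not 4 independent observations, since the probes of a pair read the same RNA. The miR-143 probes also met the detection filter only through E9.5. The median over the 4 probes was 1.08, beside -0.02 over all tested probes. Without Male E5.5 array 2 or without Female E5.5 array 3, dre-miR-145 no longer passed (limma adjusted p = 0.0586 and 0.0606), and 3 probes remained called. For 3 of the 4 probes no E9.5 array overlapped an E5.5 array, which held for 7.45% of tested probes.

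Within males, dre-miR-143 averaged 7.88 ± 0.29 at E9.5 and 6.81 ± 0.33 at E5.5 (SD, n = 4 and 3), a difference of 1.07 ± 0.26 (limma adjusted p = 0.0132). The hsa-miR-143 probe averaged 7.68 ± 0.28 and 6.42 ± 0.10, and hsa-miR-145 averaged 10.29 ± 0.30 and 8.90 ± 0.75, at E9.5 and E5.5. Their differences were 1.26 ± 0.32 and 1.38 ± 0.35 (limma adjusted p = 0.0158 for each). The dre-miR-145 probe differed by 1.30 ± 0.41 and did not pass (limma adjusted p = 0.0705).

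In males 3 of the 4 probes thus passed, against 6.75% of tested probes, and for 4 of 4 the E9.5 and E5.5 arrays did not overlap, against 17.9%. The miR-143 probes among the 3 called met the detection filter only through E9.5, so their calls are not independent of it. The number called also depended on single arrays. It was 0 without Male E5.5 array 2 and 0 without Male E9.5 array 1-1, 1 without Male E5.5 array 6, and 1 without the 3 arrays that stood apart. Since hsa-miR-143 was detected on 0 of 3 E5.5 male arrays (and 3 of 4 at E9.5), its measured fold there is not given. Taking each E5.5 array at its lowest detected mature probe gave 1.09-fold. Male E9.5 array 2, where the probe was not detected, kept its measured value, so this is not a strict lower bound.

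Within females, dre-miR-143 averaged 7.98 ± 0.27 at E9.5 and 6.90 ± 0.15 at E5.5 (SD, n = 4 and 3), a difference of 1.08 ± 0.26 (limma adjusted p = 0.0138). It was detected on no E5.5 female array. Against the lowest detected probe of each array its measured E9.5 mean was at least 1.42-fold higher, a bound without sampling error. The other probes did not pass in females. Their differences were 0.90 ± 0.32 for hsa-miR-143 (limma adjusted p = 0.0851), 1.04 ± 0.35 for hsa-miR-145 (0.0669) and 0.76 ± 0.41 for dre-miR-145 (0.2).

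Of the 4 probes, 1 was therefore called in females, against 7.98% of tested probes, and 3 of 4 did not overlap, against 38.3%. The called probe, dre-miR-143, met the detection filter only through E9.5, so its call is not independent of that filter. Without Female E5.5 array 3 or without Female E5.5 array 4 the count was 0. Without the 3 arrays that stood apart, of which none was in this comparison, it was 3, beside 41 of 159 tested probes. The 3 arrays that stood apart enter the fit through the normalisation and the shared estimate of the spread. The male change minus the female change was tested directly and no probe passed in limma, with 0% of tested probes called and 3 of 163 below an unadjusted p of 0.05. That difference was -0.01 for dre-miR-143, 0.36 for hsa-miR-143, 0.53 for dre-miR-145 and 0.35 for hsa-miR-145. Its 95% intervals ran from -0.78 to 0.76, -0.59 to 1.32, -0.69 to 1.75 and -0.69 to 1.39 in the same order. For hsa-miR-143, dre-miR-145 and hsa-miR-145 the upper limits exceeded the change averaged over the sexes (1.08, 1.03 and 1.21). A sex difference larger than that change was thus within reach of the error for them. For dre-miR-143 both limits were smaller in size than its change of 1.08.

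**Figure D2:**
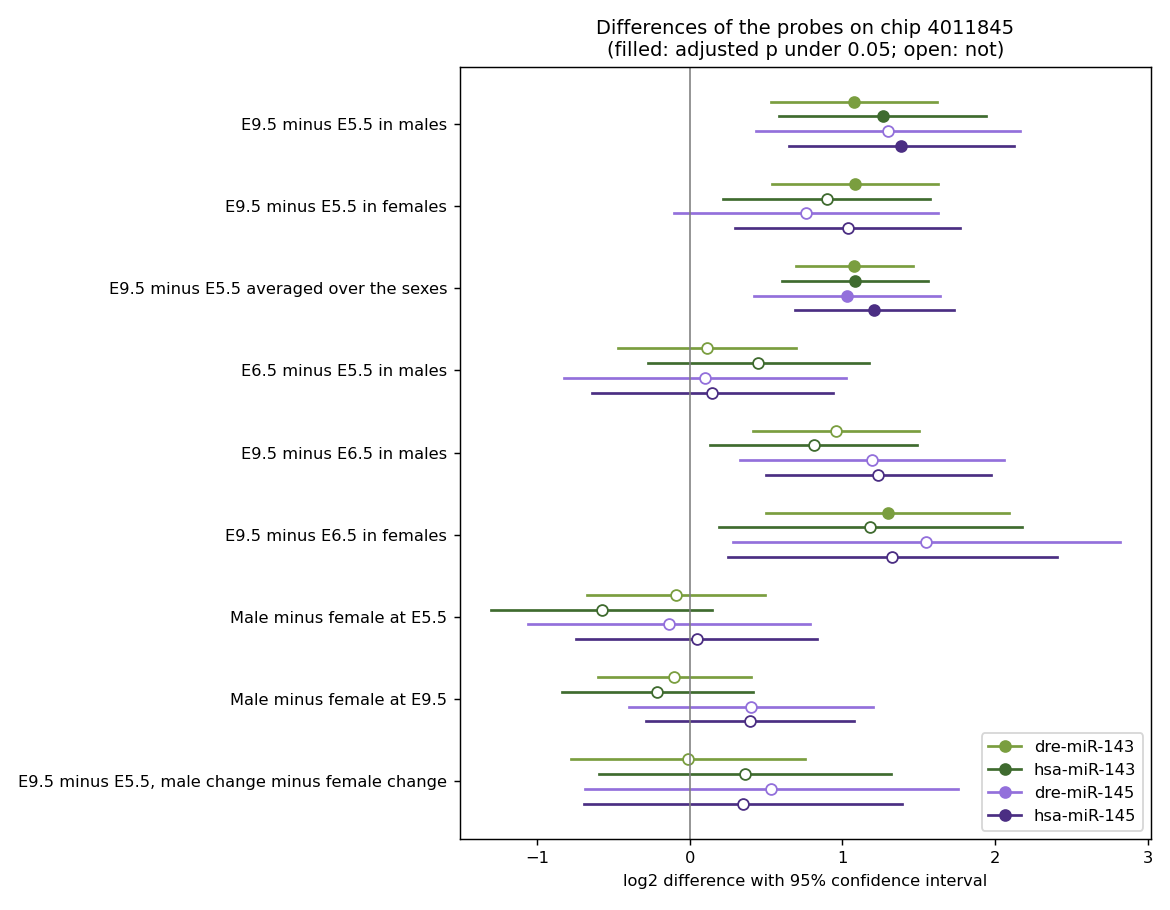
Log2 differences (horizontal axis) of the 4 probes in 9 comparisons on chip 4011845, with 95% confidence intervals as lines. Filled points had a limma adjusted p under 0.05; all E9.5 minus E5.5 values lie between 0.76 and 1.38, and all intervals of the sex comparisons include 0.

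The 4 probes were also compared between E9.5 and E6.5. In males, E9.5 exceeded E6.5 by 0.96 ± 0.26 for dre-miR-143, 0.81 ± 0.32 for hsa-miR-143, 1.19 ± 0.41 for dre-miR-145 and 1.24 ± 0.35 for hsa-miR-145. None of these passed (limma adjusted p from 0.0928 to 0.291), where 1.23% of tested probes were called, although all 4 intervals before adjustment excluded 0. With the slide sector as a block 3 of the 4 were called, beside 8 of 163 tested probes. With the arrays of both chips in one fit 3 were called, where 4.69% of tested probes were. Without Male E6.5 array 6, the count was 1.

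In females the E6.5 group on this chip is 1 array, whose spread was taken to equal that of the other groups. E9.5 exceeded it by 1.30 ± 0.38 for dre-miR-143 (limma adjusted p = 0.0475), 1.18 ± 0.47 for hsa-miR-143, 1.55 ± 0.60 for dre-miR-145 and 1.33 ± 0.51 for hsa-miR-145 (0.0907 for each of the last 3). The 1 call compares with 9.20% of tested probes; with both chips in one fit 3 were called, against 20.7%. The call, of dre-miR-143, was lost without Female E9.5 array 1-1, 1-2 or 3, and that probe met the detection filter only through E9.5. The median over all tested probes was 0.27 in this comparison, so the values are less far from the bulk of probes than they look. On the female E6.5 array dre-miR-143, hsa-miR-143 and dre-miR-145 were not detected. Against the lowest detected probe of that array, the measured E9.5 mean was at least 1.03-fold for dre-miR-143 and at least 2.56-fold for dre-miR-145. These bounds rest on 1 early array and carry no sampling error, so smaller true folds are possible. With both chips in one fit the log2 difference of dre-miR-145 was 1.02 ± 0.39. For hsa-miR-143 the bound was under 1, so no fold is given.

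Between E6.5 and E5.5 no probe of the 4 passed. In males the differences were 0.11 for dre-miR-143, 0.45 for hsa-miR-143, 0.10 for dre-miR-145 and 0.15 for hsa-miR-145, with 95% intervals that reached from -0.82 to 1.17 over the 4 probes. In females, with 1 array at E6.5, the differences were -0.21, -0.28, -0.79 and -0.29, beside a median of -0.27 over all tested probes. By limma 0% of all tested probes were called in either sex, and 3 of 163 in males and 6 of 163 in females had an unadjusted p under 0.05.

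The sexes were compared at each stage. At E9.5 male minus female was -0.10 ± 0.24 for dre-miR-143 and -0.21 ± 0.30 for hsa-miR-143, against 0.40 ± 0.38 for dre-miR-145 and 0.39 ± 0.32 for hsa-miR-145 (SE, 4 arrays of each sex). The 95% intervals were -0.60 to 0.40, -0.84 to 0.42, -0.40 to 1.20 and -0.29 to 1.08 in that order, and no probe passed (limma adjusted p from 0.835 to 0.951). Male and female arrays overlapped for all 4 probes at this stage. Taken as same-numbered pairs, the male array was the higher in 4 of 4 pairs for dre-miR-145 (by 0.04 to 0.73) and in 4 of 4 for hsa-miR-145 (by 0.08 to 0.78), which read the same RNA, in 3 of 4 for dre-miR-143 and in 1 of 4 for hsa-miR-143. With the array number as a block the miR-145 differences had SEs of 0.26 for dre-miR-145 and 0.27 for hsa-miR-145 and did not pass (limma adjusted p = 0.696 and 0.704).

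At E5.5 male minus female was -0.09, -0.57, -0.13 and 0.05 for dre-miR-143, hsa-miR-143, dre-miR-145 and hsa-miR-145. All 3 female arrays exceeded all 3 male arrays for hsa-miR-143, where 4.32% of tested probes did not overlap. Yet its interval ran from -1.30 to 0.15, and the overlapping dre-miR-143 probe showed no such separation. At E5.5 hsa-miR-143 was detected on 0 of 3 male and 1 of 3 female arrays, and dre-miR-143 on 1 of 3 and 0 of 3. Their sex differences there are thus mostly between readings not above the negative controls. At E6.5, with 1 female array, male minus female was 0.24, 0.16, 0.76 and 0.48 for the probes in that order. The median over all tested probes was 0.25 in that comparison, so the miR-143 values did not exceed the bulk of probes. At each of the 3 stages 0% of tested probes were called by limma for sex, and 11 of 163 at E9.5, 10 at E6.5 and 3 at E5.5 had an unadjusted p under 0.05. The data therefore bound a sex difference at E9.5 only to within about 1 log2 unit for miR-145 and somewhat less for miR-143.

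Ranked by group mean, the 2 E9.5 groups were the highest for every probe. For dre-miR-143 the order was Female E9.5 (7.98), Male E9.5 (7.88), Male E6.5 (6.92), Female E5.5 (6.90), Male E5.5 (6.81) and Female E6.5 (6.68). The step of 0.96 between Male E9.5 and Male E6.5 exceeded the SD within groups, which was at most 0.47, and the other steps, of at most 0.13, did not. For hsa-miR-145 the order was Male E9.5 (10.29), Female E9.5 (9.89), Male E6.5 (9.05), Male E5.5 (8.90), Female E5.5 (8.86) and Female E6.5 (8.57). There the step from Female E9.5 to Male E6.5 was 0.84 and the other steps were at most 0.39. For hsa-miR-143 and dre-miR-145 as well, the widest step was the one between the E9.5 groups and the next group (0.69 and 0.76). Steps between neighbouring earlier groups were at most 0.29 for hsa-miR-143 and 0.65 for dre-miR-145, under the largest SD within those groups (0.64 and 0.96). The widest step of dre-miR-145, of 0.76, was under that SD too, and that of hsa-miR-143, of 0.69, was barely above it. Groups that were not neighbours could differ by more, as Male E5.5 and Female E5.5 did for hsa-miR-143, by -0.57 beside SDs of 0.10 and 0.28. Most of those E5.5 readings were not above the negative controls.

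Each probe has a partner on the array with 2 mismatched bases, which reads binding that does not need the full sequence. In the partners, with the changed bases in capitals, the changes fall in the middle of the probe.
dre-miR-143 partner: gagctacagGTcttcatctca
hsa-miR-143 partner: tgagctacagGTcttcatctca
dre-miR-145 partner: gggattcctgAAaaaactggac
hsa-miR-145 partner: aagggattcctTAgaaaactggac
Counted from the 5′ end of the probe, the substitutions are T10G and G11T, T11G and G12T, G11A and G12A, and G12T and G13A for the 4 partners in that order.

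None of the 4 partners was detected on any of the 18 arrays of chip 4011845. The unnormalised intensity of hsa-miR-145 over its partner ran from 7.32 to 18.6 at E9.5, against 2.19 to 6.65 at E5.5, and dre-miR-145 over its partner from 5.22 to 10.2 at E9.5, against 1.52 to 4.63 at E5.5. For dre-miR-143 the ratio ran from 1.95 to 3.51 at E9.5, against 1.21 to 1.70 at E5.5. For hsa-miR-143 it ran from 1.54 to 4.45 at E9.5, against 1.12 to 1.81 at E5.5. The ratios of these 2 stages did not overlap for dre-miR-143, dre-miR-145 and hsa-miR-145 and overlapped for hsa-miR-143. At E6.5 the ratio reached 2.39 for dre-miR-143 and 3.03 for hsa-miR-143, inside their E9.5 ranges. It reached 5.19 for dre-miR-145 and 6.91 for hsa-miR-145, just under theirs. How many of all tested probes separate by this ratio was not computed, so the separation is not read as particular to these probes. The ratio is taken within an array and does not depend on the normalisation between arrays. As no partner was detected, it divides by a reading at the level of the background, which differed between arrays. The only ratio under 1 on this chip was that of hsa-miR-143 on Male E6.5 array 2, at 0.975.

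**Figure D3:**
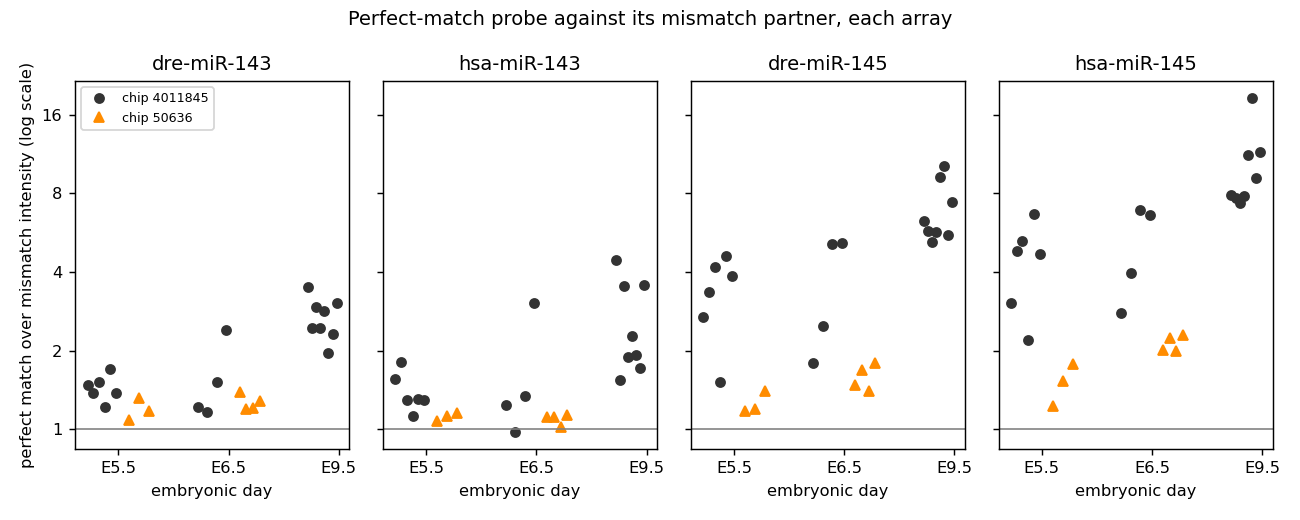
Intensity of each perfect-match probe divided by that of its mismatch partner (vertical axis, log scale) on each array, by embryonic day, with circles for chip 4011845 and triangles for chip 50636. The grey line marks a ratio of 1; on chip 4011845 hsa-miR-145 reaches 18.6 at E9.5, and on chip 50636 no ratio exceeds 2.29.

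Unnormalised intensities are given for a probe of each pair, to be read within a probe and not between probes. In E9.5 gonads dre-miR-143 read between 221 and 331.75 in males and between 245.75 and 343.75 in females, against 153 to 234.5 in E5.5 males and 134.25 to 221.25 in E5.5 females. The hsa-miR-145 probe read 852.25 to 2827 in E9.5 males and 633.25 to 1186.5 in E9.5 females, against 268.5 to 924.25 in E5.5 males and 289 to 782.5 in E5.5 females. The highest reading came from Male E9.5 array 1-2, which was scanned at 2 s. Exposures on this chip ran from 0.5 to 2 s, so these readings cannot be compared directly between arrays or stages.

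Chip 50636 held 2 Male E5.5, 1 Female E5.5, 2 Male E6.5 and 2 Female E6.5 arrays. All of them are numbered 1-1 or 1-2, and the labels do not say whether such arrays share an RNA pool. Their average was not run for this chip, so its SEs may be too small and its shares of called probes too high. On chip 50636 the 4 probes were mostly not above the negative controls. Detection over all mature probes was not lower, with 76 to 229 detected per array against 51 to 177 on chip 4011845. The miR-143 probes and dre-miR-145 were detected on 0 of these 7 arrays, and hsa-miR-145 on 5 of 7, which were the 4 E6.5 arrays and the Female E5.5 array. Its log2 values, normalised within that chip, were 7.35 and 7.19 in Male E6.5 arrays, 7.19 and 7.32 in Female E6.5 arrays, 7.17 and 7.16 in Male E5.5 arrays and 7.60 in the Female E5.5 array. The E6.5 minus E5.5 difference there was 0.11 ± 0.11 in males and -0.34 ± 0.13 in females (limma adjusted p = 0.754 and 0.116), and male minus female at E5.5 was -0.44 ± 0.13 (0.0839). None passed, where 0%, 31.0% and 15.5% of the 116 probes tested on that chip did. The Female E5.5 array behind the last 2 values is single and was the brightest of the chip. It was scanned at 2 s, against 0.1 to 0.5 s for the other arrays of the chip, so group and exposure cannot be told apart in those values.

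With all 25 arrays in one fit and the chip as an additive term, all 4 probes were called for E9.5 minus E5.5 averaged over the sexes, against 29.1% of the 213 probes tested. The log2 differences were 1.02 ± 0.15 for dre-miR-143, 1.02 ± 0.18 for hsa-miR-143, 1.07 ± 0.24 for dre-miR-145 and 1.18 ± 0.20 for hsa-miR-145. In that fit 4 of 4 were called in males and 3 of 4 in females, against 13.1% and 16.0%, and dre-miR-145 in females was the exception (limma adjusted p = 0.0733). All E9.5 arrays were on chip 4011845, so the chip term rests on the earlier stages alone. That term was itself called for 194 of the 213 probes. The 7 added arrays are all early and numbered 1-1 or 1-2. On 0 of these 7 were the miR-143 probes or dre-miR-145 detected, so the miR-143 probes met the filter only through E9.5 here too. Calls of this fit, also for E9.5 minus E6.5, are therefore not read as stronger support.

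Among themselves, the 2 miR-145 probes moved almost as one over the 18 arrays (Pearson r = 0.97, and 0.95 for deviations from group means), as a description over arrays that share stage and depth. The 2 miR-143 probes were less alike, with r = 0.79 over arrays but 0.26 for the deviations, although one sequence contains the other. The dre-miR-143 probe correlated with dre-miR-145 at 0.76 and with hsa-miR-145 at 0.82, and the hsa-miR-143 probe at 0.47 and 0.53. The deviations of hsa-miR-143 from its group means correlated negatively with those of the miR-145 probes, at -0.29 and -0.30.

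The hsa-miR-143 probe was also examined by a number from 1 to 4 that the scanner tables give each array. It is read here as the array's sector on a slide of 4 arrays, which the labels do not name. At every stage the arrays of sector 4 were above those of sectors 1 to 3 for this probe. No share over all tested probes was computed for this split, so how common it is among them is not known. The values were 8.03 to 8.60 on sector 4, against 7.35 to 7.79 on the other sectors, at E9.5, and 6.93 to 7.30, against 6.34 to 6.76, at E5.5. The other 3 probes showed no such separation at both stages. Sector 4 held 3 of 8 arrays at E9.5, 2 of 4 at E6.5 and 2 of 6 at E5.5, and both of the E5.5 ones were female. With the sector as a block, male minus female at E5.5 for this probe was -0.03 ± 0.31 (limma adjusted p = 0.977), in place of -0.57 ± 0.34 without it (0.918). At E5.5 the male arrays were on sectors 1 and 2 and the female arrays on sectors 3 and 4, so no within-sector value exists and the block rests on the other stages.

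With the sector as a block, E9.5 minus E5.5 averaged over the sexes was 1.15 for dre-miR-143, 1.04 for hsa-miR-143, 1.16 for dre-miR-145 and 1.34 for hsa-miR-145. All 4 were called by limma, beside 40 of 163 tested probes. Within sector 4 the female arrays, 2 at each stage, gave 1.06, 1.26, 0.53 and 0.94 for the probes in that order. Within sector 3, with 1 female array at each stage, the differences were 0.74, 0.59, 0.47 and 0.60. No other sector held both stages in females. In males sector 2 alone held both, with 1 array each, and gave 0.90, 1.12, 1.27 and 1.50.

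**Figure D4:**
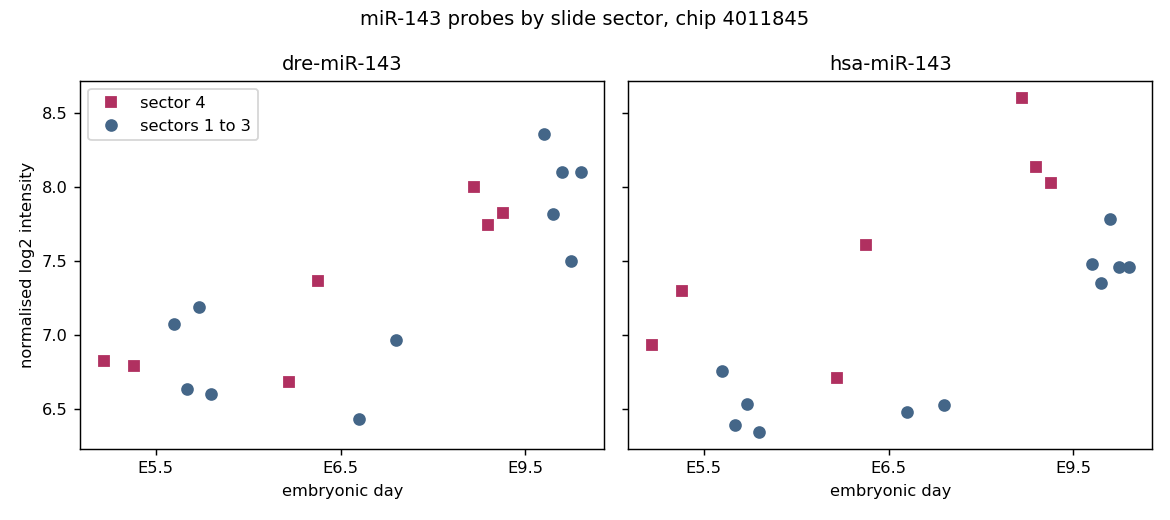
Normalised log2 intensity (vertical axis) of the 2 miR-143 probes on chip 4011845, by embryonic day, with squares for arrays on sector 4 and circles for those on sectors 1 to 3. For hsa-miR-143 the squares lie above the circles at each stage, and for dre-miR-143 they do not.

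Other microRNAs known from mesenchyme were examined as a list. The miR-199 family and miR-214, which in mouse are in part cut from one transcript of mesenchymal cells, have 5 probes on the array, of which 4 were tested. Averaged over the sexes, 3 of the 4 were called higher at E9.5 than at E5.5 and 0 lower, with a median difference of 1.10 beside -0.02 over all tested probes, of which 18.4% were called higher. They were dre-miR-199* (1.57 ± 0.19, limma adjusted p = 3.14e-05), gga-miR-199a (1.42 ± 0.20, 7.93e-05) and mmu-miR-199b (0.78 ± 0.23, 0.0224). The fourth, dre-miR-214, was detected on all 18 arrays and differed by -0.32 ± 0.28 (0.384).

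Of 13 probes for other microRNAs studied in smooth muscle (miR-10a, miR-21, miR-24, miR-26a, miR-31 and miR-221), 11 were tested, 2 were called higher at E9.5 and 0 lower, and the median difference was -0.02. That count is near the 18.4% of all tested probes that were called higher. The list also names miR-222, which is not analysed here. Both called probes were miR-26a, with 1.38 ± 0.27 for dre-miR-26a and 1.08 ± 0.22 for gga-miR-26a (limma adjusted p = 0.00125 and 0.00161). The other 9 differed by -0.46 to 0.14 and did not pass. The miR-31 probes had the lowest values of the list, from -0.46 for gga-miR-31 to -0.19 for hsa-miR-31.

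**Figure D5:**
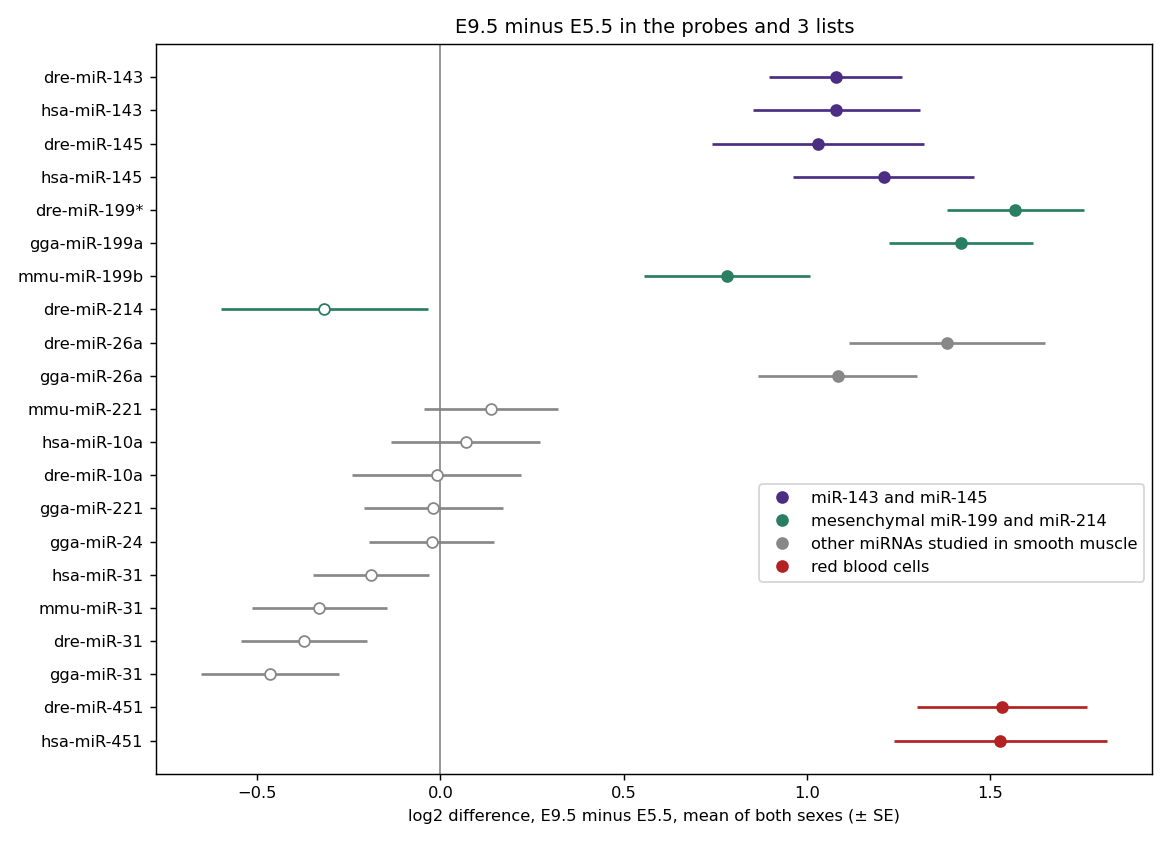
Log2 difference between E9.5 and E5.5, averaged over the sexes (horizontal axis, points with SE bars), for the 4 miR-143 and miR-145 probes and the tested probes of 3 lists on chip 4011845. Filled points had a limma adjusted p under 0.05; the miR-199, miR-26a and miR-451 probes stand with miR-143 and miR-145, while miR-214, miR-31, miR-221, miR-24 and miR-10a lie between -0.46 and 0.14.

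Markers of other cell types in the dissected tissue were read in the same way. Of the 8 probes for striated muscle microRNAs (miR-1, miR-133 and miR-206), 0 were detected on any of the 18 arrays, as were 0 of 4 white blood cell probes (miR-142, miR-223) and 0 of 2 liver probes (miR-122). Red blood cell microRNAs moved with the members: of 4 probes, both miR-144 probes were never detected, and both miR-451 probes were called higher at E9.5 (1.53 ± 0.23 for dre-miR-451 and 1.53 ± 0.29 for hsa-miR-451, limma adjusted p = 0.000143 and 0.00118). The summed normalised intensity of the 4 ran from 559.6 to 1664 at E9.5, against 283.6 to 489.6 at E5.5. The part of blood content in the miR-143 and miR-145 result was not tested. Endothelial gga-miR-126 differed by 0.35 ± 0.24 (0.261) and dre-miR-126* was never detected.

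Of the remaining marker lists, 0 of 3 tested neural probes, 1 of 2 tested epithelial probes and 0 of 1 tested germ line and early embryo probe were called. The epithelial call was gga-miR-205b, lower at E9.5 (-1.38 ± 0.22, limma adjusted p = 0.000174). Detection of these lists was sparse, with 4 of 7 neural, 8 of 13 epithelial and 13 of 16 germ line probes never detected on the chip.

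The 6 other tested probes whose values over the 18 arrays were most like the mean of the 4 members were dre-miR-199* (Pearson r = 0.95), gga-miR-99a (0.91), gga-miR-199a (0.90), dre-miR-451 (0.90), hsa-miR-451 (0.87) and hsa-miR-27a (0.86). The arrays fall into stages and share their depth, so these values describe a likeness of pattern and carry no test. Spearman correlations were 0.88 to 0.95. Without the 3 arrays that stood apart, r was 0.92, 0.85, 0.91, 0.86, 0.79 and 0.80 in the same order. All 6 were called higher at E9.5 than at E5.5 by limma, by between 0.44 for hsa-miR-27a and 1.57 for dre-miR-199*, against 18.4% of tested probes. The members' mean is itself high at E9.5, so choosing probes by their correlation with it made such calls likely. They therefore add no support.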

How the data were processed

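Small RNA from pooled gonads was hybridised with a Cy5 label that binds guanine, per the labels' protocols. Values of 1 exposure per array were used, and whether others were scanned is not known here. The exposure differed between arrays, from 0.5 to 2 s on chip 4011845 and from 0.1 to 2 s on chip 50636. The authors deposited scanner tables with a median foreground intensity and the number of spots (a count) per probe. They also deposited a series table of rescaled intensity, used only as an alternative. The sources used here do not give its scaling. The 4 probes, the lists and the tests were chosen with earlier results of these data known. Named probes are the 4 members, the tested list members, and the 6 tested probes with the highest Pearson correlation to the members' mean; gga-miR-126, gga-miR-205b and the miR-451 probes are markers.

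Foreground intensities of all spots were corrected with normexp (offset 50) and put on the log2 scale, and the 657 mature probes were quantile-normalised over the 18 arrays of chip 4011845 with limma 3.58.1 in R 4.3.3. Probes detected on at least 3 arrays were tested in one limma fit of 6 group means over 11 comparisons, with Benjamini-Hochberg adjustment over 163 probes and a threshold of 0.05. All adjusted p-values are limma's. The procedure was tested on simulated data. A lower bound on a fold sets each array of the earlier group to its lowest detected mature probe, or to the probe's own value if higher. Arrays of the later group keep their measured values, and the bound carries no sampling error. Identical values were found for 0 pairs of arrays.

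The labels do not say that array numbers mark a shared batch, so deviations from group means were correlated between arrays of one number. Between E6.5 and E5.5 males the 3 correlations were 0.73, 0.76 and 0.33, and between E9.5 males and females the 4 were 0.36, 0.35, 0.44 and 0.14. Array 2 of Male E5.5 and array 2 of Female E9.5, which share neither sex nor stage, correlated at 0.62. These values therefore do not settle whether a number marks a true pair. The fit with the array number as a block, an alternative to the unblocked fit reported, treats the numbers as pairs in both comparisons.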

Additional observations from a re-analysis of the deposited data

Results flagged for a closer look

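One value outside the main measurement was above the negative controls. On the Female E5.5 array 1-2 of chip 50636, the mismatch partner of hsa-miR-145 read 482, against a negative-control cutoff of 478.05. That array had the highest cutoff of the chip, where cutoffs began at 137.55, and hsa-miR-145 itself read 590 on it. In 8 groups of 4 arrays, the 4 probes in each sex at E9.5, no array lay far from the others by Dixon's test.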

How the results depend on the processing

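For E9.5 minus E5.5 averaged over the sexes, dre-miR-143, hsa-miR-143 and hsa-miR-145 stayed called by limma under all 11 other alternatives and without each of 14 arrays, and dre-miR-145 under 10 of 11 (adjusted p = 0.0507 with no filter on dim probes) and without 12 of 14; the count of called probes ran from 3 to 4 when an array was left out. In the authors' deposited series table, whose blanks were set to 0 before 50 was added, the differences were 2.78 for dre-miR-143 and 3.96 for hsa-miR-143, and in males 5.94 for hsa-miR-143; the cause was not tested. Under 75th percentile scaling the median of all tested probes in E6.5 minus E5.5 in females was 0.17 in place of -0.27, and that of E9.5 minus E5.5 averaged over the sexes 0.01 in place of -0.02, with the members 1.10 above it under both scalings.

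Counts of called members in single-sex comparisons moved, and no cause was tested. For E9.5 minus E5.5 in females (1 call) they were 2 with 75th percentile scaling, 3 with both chips, 3 with exposure as a covariate, 2 with the sector block, 2 with the compared groups only, 0 with the series table, 3 without the 3 arrays that stood apart (an alternative chosen after seeing the data) and 0 to 1 when an array was left out. In males (3 calls) they were 1 with the series table, 1 without those 3 arrays and 0 to 4 when an array was left out. For E9.5 minus E6.5 in females (1 call) they were 0 with 75th percentile scaling, the series table, the replicate block and the average of arrays 1-1 and 1-2, 3 with both chips, exposure or the compared groups only, and 0 to 1 when an array was left out. In males (0 calls) they were 3 with both chips, 3 with the sector block and 0 to 1 when an array was left out. In the other comparisons 0 members were called under every alternative run.

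Over all tested probes, E9.5 minus E5.5 averaged over the sexes gave 39 calls, 24 with arrays 1-1 and 1-2 averaged, 62 with both chips and 18 to 53 when an array was left out. In females it gave 13 calls, 23 with 75th percentile scaling, 8 with the series table, 34 with both chips, 32 with exposure, 33 with the compared groups only, 41 without the 3 arrays and 7 to 17 when an array was left out. In males it gave 11 calls, 28 with both chips, 18 with the sector block and 6 to 18 when an array was left out. E9.5 minus E6.5 in females gave 15 calls, 0 with 75th percentile scaling, the replicate block or averaged arrays, 1 with the series table, 3 with the sector block, 29 with no filter, 30 with exposure, 42 with the compared groups only, 44 with both chips and 0 to 19 when an array was left out. In males it gave 2 calls, 0 with the series table, 1 without the 3 arrays, 8 with the sector block, 10 with both chips and 0 to 4 when an array was left out. For E6.5 minus E5.5 in females (0 calls) there were 3 with the compared groups only, 12 with no filter and 36 on chip 50636 alone, and for male minus female 18 at E5.5 and 3 at E6.5 on that chip, 13 at E6.5 with no filter, and at E9.5 2 with the series table, 3 with both chips, 3 with the compared groups only, 1 with the replicate block and 2 without the 3 arrays. The male minus female change gave 1 call with the series table.

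The replicate block changed no member call where the numbers were taken to pair arrays (E6.5 minus E5.5 in males and male minus female at E9.5). Elsewhere they were not taken as pairs, at least 1 correlation being under 0.1 or fewer than 3 pairs existing. For E9.5 minus E5.5 the block called 3 members in males and 1 in females, not the same ones as without it.

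Male minus female at E5.5 for hsa-miR-143 (-0.57) ran from -4.25 with the series table to -0.031 with the sector block, and was never called. Signs turned only in values that were not called: 34 under other alternatives and 23 when an array was left out. With 75th percentile scaling, E6.5 minus E5.5 in females was 0.23 for dre-miR-143 and 0.18 for hsa-miR-143, male minus female at E6.5 -0.037 and -0.053 for those probes, at E5.5 0.10 for dre-miR-143 and 0.037 for dre-miR-145, and the male minus female change -0.023 for hsa-miR-143. With the series table, E6.5 minus E5.5 in males was -0.11 for dre-miR-143, male minus female at E6.5 -1.05 for hsa-miR-143, and the change 0.64 for dre-miR-143. With both chips, E6.5 minus E5.5 in males was -0.038 for dre-miR-143, and male minus female at E5.5 0.093 for dre-miR-143, 0.027 for dre-miR-145 and -0.12 for hsa-miR-145, or -0.44 on chip 50636 alone. With the replicate block, E6.5 minus E5.5 in females was 0.077 for dre-miR-143, 0.51 for dre-miR-145 and 0.81 for hsa-miR-145, male minus female at E6.5 -0.0015 for hsa-miR-143 and at E5.5 0.033 for dre-miR-143 and 0.59 for dre-miR-145, and the change -0.19 for dre-miR-145 and -0.44 for hsa-miR-145. With arrays 1-1 and 1-2 averaged the change was 0.083 for dre-miR-143. With exposure, E6.5 minus E5.5 in females was 0.017 for hsa-miR-145 and male minus female at E5.5 0.036 for dre-miR-145. With the sector block, male minus female was 0.033 at E9.5 for dre-miR-143 and -0.63 at E5.5 for hsa-miR-145, and the change 0.29 for dre-miR-143. Without the 3 arrays, E6.5 minus E5.5 in males was -0.22 for dre-miR-145 and -0.11 for hsa-miR-145, male minus female at E5.5 0.42 for dre-miR-145, and the change -0.017 and -0.081 for dre-miR-145 and hsa-miR-145. When an array was left out, values whose sign turned ranged as follows. E6.5 minus E5.5 in males ran from -0.11 to 0.36 for dre-miR-143, -0.45 to 0.41 for dre-miR-145 and -0.27 to 0.45 for hsa-miR-145. Male minus female ran from -0.28 to 0.017 for dre-miR-143, -0.44 to 0.42 for dre-miR-145 and -0.25 to 0.47 for hsa-miR-145 at E5.5, from -0.21 to 0.35 for hsa-miR-143 at E6.5, and from -0.18 to 0.031 for dre-miR-143 and -0.39 to 0.026 for hsa-miR-143 at E9.5. The male minus female change ran from -0.12 to 0.18 for dre-miR-143, -0.023 to 0.84 for dre-miR-145 and -0.070 to 0.65 for hsa-miR-145.

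Signal over background limits miR-143 most. On early arrays both probes were mostly not above the negative controls. Folds against groups with no detected array therefore have at most a bound.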
